A study of Mus musculus with 4 samples.

Results

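Single hematopoietic stem cells (HSCs) of mouse bone marrow were divided by their transcript level of Ly6a, the gene of the surface antigen Sca-1. Within each of 4 libraries, the cells were ranked by Ly6a counts scaled to a total of 1000000 counts per cell (CPM). The Ly6a-high HSCs, 66 cells in all, were chosen by that value as the highest 25% of each library, and the Ly6a-low HSCs, also 66 cells, as the lowest 25%. Both were drawn from 264 cells past a depth filter, out of 297 in the whole series, and the other 132 cells form 2 middle bins of 25% each. Because Ly6a chose the sides, its own values are a description and carry no test.

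All cells of both sides came from wild-type mice, 8 weeks old, of a strain that the sources do not name. The cells were sorted one by one as ESLAMSK cells: negative for lineage markers and CD48, positive for Kit, Sca1, CD150 and CD201 (EPCR), and either negative or positive for CD27. The labels name both CD27 gates for every library and give no gate for a cell, so the CD27 gate of the Ly6a-high and Ly6a-low cells is not known. Whether the 4 libraries came from separate mice is not stated either, so the spread between them may be technical. Every cell had thus passed a gate for the Sca-1 protein, and the sides were set by the transcript, with no protein level per cell used here. RNA was read by STRT-seq, a method that tags each cell's cDNA with a barcode and counts one end of each transcript. Reads were counted per gene in 13742 genes.

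Sca-1 is a small protein of the Ly6 family, held on the outer membrane by a glycosylphosphatidylinositol (GPI) anchor, and is the antigen by which mouse HSCs have long been sorted. Its gene is known to be induced by interferons, cytokines that cells release in infection. Interferons signal through JAK kinases and STAT transcription factors, which bind short DNA motifs in front of their target genes and raise antiviral proteins and antigen presentation. HSCs are mostly quiescent cells that divide rarely, and interferon is known to act on them directly.

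Ly6a was counted in 243 of the 264 cells and spanned a wide range within each library. The Ly6a-high cells held at least 863, 934, 1008 and 1074 CPM in libraries 1 to 4, with medians of 1361, 1346, 1582 and 1321 CPM and highest values of 3222, 2669, 3444 and 2845 CPM. The Ly6a-low cells held at most 146, 277, 212 and 161 CPM, with medians of 3.45, 29.3, 22.2 and 6.08 CPM. The levels therefore ran without a break from one side to the other: the cells just outside the Ly6a-high bound stood at 842, 898, 987 and 1061 CPM, and those just outside the Ly6a-low bound at 156, 278, 235 and 201 CPM. No Ly6a count was seen in 21 of the 66 Ly6a-low cells, 9 of them in library 1, 5 in library 2, 3 in library 3 and 4 in library 4. At this depth, such cells may hold transcript that was not counted.

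**Figure D1:**
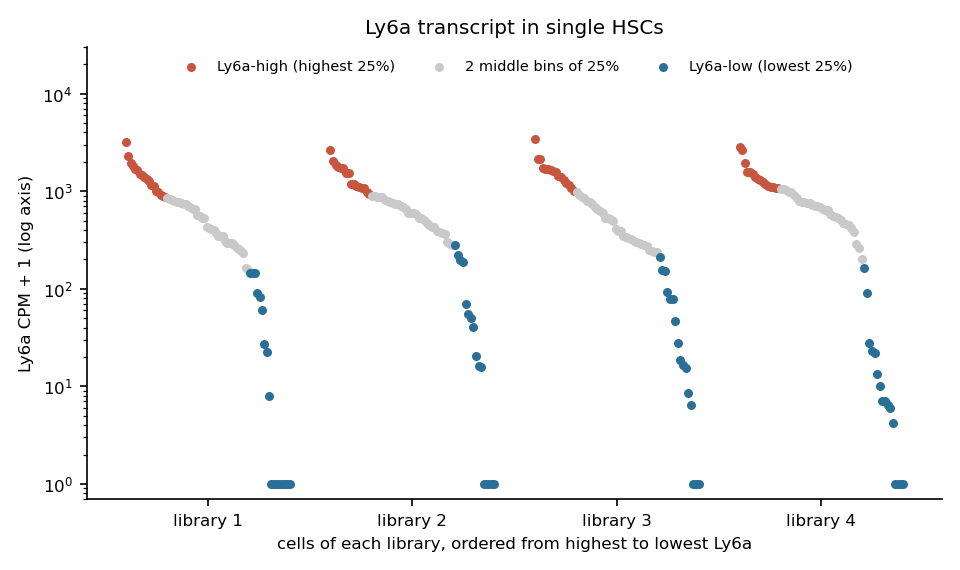
Each point is 1 of the 264 cells past the filter, placed within its library from highest to lowest Ly6a, with Ly6a CPM plus 1 on a log axis; red marks Ly6a-high cells, grey the 2 middle bins and blue Ly6a-low cells. The levels run on without a gap between bins, and 21 cells, all of them Ly6a-low, sit at no count.

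With counts summed per library and side, Ly6a stood at 1431, 1412, 1654 and 1428 CPM in Ly6a-high HSCs and at 35.2, 80.8, 58.0 and 30.7 CPM in Ly6a-low HSCs. The gene lies at chr15:74994877-74998031 on the minus strand (GRCm38, GENCODE M21). Its mean over the 4 libraries was 51.2, 373, 747 and 1481 CPM over the 4 bins, from lowest to highest Ly6a. Ly6c1 and Ly6c2, members of the same family, are near-identical to each other, so the division of reads between them is uncertain. Ly6c1 stood at 11.9 ± 14.3 CPM in Ly6a-high and at 0.853 ± 1.34 CPM in Ly6a-low HSCs (SD, n = 4 each), and Ly6c2 had a count in 1 Ly6a-high cell and in no Ly6a-low cell.

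Averaged over the libraries, depth and the number of genes detected differed between the sides by less than the spread of the libraries. The median number of counts per cell was 106302, 132255, 62246 and 117678 in Ly6a-high HSCs and 75992, 94227, 77478 and 175004 in Ly6a-low HSCs, higher in 2 of 4 libraries. With every cell reduced by random draws to 30000 counts, the median number of genes detected was 2529 ± 166 in Ly6a-high and 2665 ± 194 in Ly6a-low HSCs (SD, n = 4 each; two-sided exact sign-flip permutation test over libraries, p = 0.5). The difference, Ly6a-high minus Ly6a-low, had opposite signs between libraries: 199, 131.5, -353.5 and -524 genes in libraries 1 to 4. The share of mitochondrially encoded counts was 1.43 ± 0.081% in Ly6a-high and 1.35 ± 0.053% in Ly6a-low HSCs, higher in 3 of 4 libraries (same exact permutation test, p = 0.25). With 4 libraries this test cannot reach 0.05. No cell name occurred in more than 1 library.

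The antigens used in the sort were then examined as transcripts, since both sides had passed the same gates. Kit, the stem cell factor receptor, stood at 199 ± 95.1 CPM in Ly6a-high and at 202 ± 71.3 CPM in Ly6a-low HSCs and was counted in 55 Ly6a-high and 60 Ly6a-low cells. Procr, the gene of EPCR, stood at 361 ± 143 CPM in Ly6a-high and at 267 ± 149 CPM in Ly6a-low HSCs and was higher in 3 of 4 libraries. Slamf1, the gene of CD150, stood at 61.5 ± 49.1 CPM in Ly6a-high and at 67.1 ± 37.7 CPM in Ly6a-low HSCs and was sparse on both sides, with a count in 17 Ly6a-high and 18 Ly6a-low cells. Cd27, a receptor of the tumour necrosis factor family and the antigen on which the sort was split, stood at 221, 125, 344 and 170 CPM in Ly6a-high and at 205, 183, 222 and 95.6 CPM in Ly6a-low HSCs. Its log2 fold change was 0.26 ± 0.31 (SE), counts were seen in 41 Ly6a-high and 37 Ly6a-low cells, and the groups overlapped. The direction turned with the bounds of the sides, to -0.12 between the outer 33.3% of cells and -0.30 between the outer 50%. Ptprc, the gene of the leukocyte antigen CD45, stood at 225 ± 65.7 CPM in Ly6a-high and at 209 ± 79.9 CPM in Ly6a-low HSCs. Cd48 was counted in 0 of 66 Ly6a-high and 0 of 66 Ly6a-low cells, which allows a share of up to 4.55% of such cells with a count and sets no limit on cells that hold uncounted transcript. Hlf, a transcription factor of HSCs, was counted in 58 Ly6a-high and 54 Ly6a-low cells. Both sides thus carried the transcripts that go with the sort, Slamf1 in a minority of cells.

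Of the 28 other genes of the Ly6 family listed, 12 were in the table and 3 passed the filter on low counts. Ly6e, a GPI-anchored interferon-induced protein whose gene lies in the same cluster as Ly6a, at chr15:74955051-74959905, stood at 1252, 1404, 963 and 958 CPM in Ly6a-high HSCs and at 691, 816, 919 and 598 CPM in Ly6a-low HSCs. It was higher in 4 of 4 libraries, without overlap between the groups, with a log2 fold change of 0.60 ± 0.17 (SE). It did not pass the test over all genes (edgeR, adjusted p = 1.00). Cd59a, an inhibitor of complement, and Plaur, the urokinase receptor, were counted in at most 17 cells of a side. The other Ly6 family genes in the table were counted in at most 5 cells of a side.

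To find what else differed, the 8 sums were compared gene by gene with edgeR's quasi-likelihood test, with library as a block, in the 8861 genes past the filter on low counts. None of them rose in Ly6a-high HSCs (0%) and 1 fell (0.0113%), at an adjusted p below 0.05. On artificial counts, the same test recovered 6% and 4% of genes set to log2 fold changes of 1 and -1. It recovered 38% of those set to 2 and 38% of those set to -2, and called 3 of 8662 unchanged genes. A gene that did not pass is thus not shown to be unchanged, and a single call may be false. At an unadjusted p below 0.05, 135 genes were higher (1.52%) and 153 lower (1.73%), 288 in all. This is a smaller share than that threshold gives by chance when no gene differs. Apart from the gene that fell, the lowest adjusted p was 0.551. DESeq2, a second tool run on the same sums, called 27 genes higher (0.305%) and 22 lower (0.248%), and 36 of these 49 genes had a mean level under 50 CPM. Most results that follow are therefore values that did not pass, given with the number of libraries that share a direction. For reference, 520 of the 8861 genes (5.87%) were higher in Ly6a-high HSCs in 4 of 4 libraries and 598 (6.75%) were lower in 4 of 4. In 137 genes (1.55%) all 4 Ly6a-high sums lay above all 4 Ly6a-low sums, and in 142 (1.6%) all lay below. These shares, and those for 4 of 4 libraries, are near what chance alone gives with 4 libraries. A shared direction or a lack of overlap in a single gene is therefore no result by itself. The median log2 fold change of all genes tested was -0.04.

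The gene that fell was Car1, carbonic anhydrase 1, an enzyme of the red cell lineage. Car1 stood at 0, 0, 12.4 and 0 CPM in Ly6a-high HSCs and at 92.1, 0, 673 and 105 CPM in Ly6a-low HSCs (edgeR, adjusted p = 0.0450). Its counts came from very few cells: 13 counts in 4 Ly6a-high cells, and 1642 counts in 10 Ly6a-low cells, of which 3 cells held 1631. The call rests on those cells and was lost without library 4 (adjusted p = 0.0848), without the block for library (adjusted p = 0.999) and with DESeq2 (adjusted p = 0.275). Over all alternatives in which Car1 was tested, its adjusted p ran from 1.75e-19, with no filter on low counts, to 0.999. Without library 3 Car1 no longer passed the filter on low counts.

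The 8 genes of lowest p were taken among those higher in 4 of 4 libraries with a mean of at least 50 CPM. From lowest p, they were Ifitm3, Zrsr2, Serpina3f, Shisa5, B2m, H2-D1, Iigp1 and Cyba. Of these, Ifitm3 and Shisa5 are on the interferon response list, Iigp1 and Serpina3f on the list of interferon-inducible GTPases and interferon gamma targets, and B2m and H2-D1 on the MHC class I list. None of the 8 passed edgeR's test. Promoter windows of Ifitm3, Shisa5, B2m and of the GTPase gene Gbp7 are shown because they hold motifs by which interferon is known to act on its targets. Gbp7 is not among the 8. The windows shown were thus picked for their motifs. These windows are taken from RefSeq (GRCm38.p6), run from 250 bases before to 50 bases after a transcription start, and are written 5′ to 3′ on the gene's strand. Capitals mark 2 motifs searched on both strands, where they occur: GAAANNGAAA, the core of the interferon-stimulated response element, which reads TTTCNNTTTC on the other strand, and TTCNNNGAA, the gamma-activated site bound by STAT dimers. Where the 2 motifs overlap, the capitals run together.
Ifitm3, chr7:141010695-141010994, minus strand: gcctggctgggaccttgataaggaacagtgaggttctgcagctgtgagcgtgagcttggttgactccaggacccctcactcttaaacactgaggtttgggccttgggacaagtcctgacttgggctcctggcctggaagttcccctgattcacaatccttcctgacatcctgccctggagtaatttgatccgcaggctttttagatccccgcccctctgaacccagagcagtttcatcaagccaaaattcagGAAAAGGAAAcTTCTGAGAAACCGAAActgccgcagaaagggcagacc
Shisa5, chr9:109054616-109054915, plus strand: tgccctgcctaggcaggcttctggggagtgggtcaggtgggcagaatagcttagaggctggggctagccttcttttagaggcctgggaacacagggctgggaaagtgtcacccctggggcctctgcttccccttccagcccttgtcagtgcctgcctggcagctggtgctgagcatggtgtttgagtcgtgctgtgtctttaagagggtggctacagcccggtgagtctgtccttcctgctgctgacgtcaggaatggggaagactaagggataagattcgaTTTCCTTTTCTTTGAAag
B2m, chr2:122147437-122147736, plus strand: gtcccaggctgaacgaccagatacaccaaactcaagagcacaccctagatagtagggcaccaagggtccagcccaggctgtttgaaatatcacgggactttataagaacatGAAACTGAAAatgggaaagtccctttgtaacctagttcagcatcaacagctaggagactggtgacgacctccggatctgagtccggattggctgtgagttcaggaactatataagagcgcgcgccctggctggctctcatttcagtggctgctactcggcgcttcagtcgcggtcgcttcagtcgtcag
Gbp7, chr3:142530086-142530385, plus strand: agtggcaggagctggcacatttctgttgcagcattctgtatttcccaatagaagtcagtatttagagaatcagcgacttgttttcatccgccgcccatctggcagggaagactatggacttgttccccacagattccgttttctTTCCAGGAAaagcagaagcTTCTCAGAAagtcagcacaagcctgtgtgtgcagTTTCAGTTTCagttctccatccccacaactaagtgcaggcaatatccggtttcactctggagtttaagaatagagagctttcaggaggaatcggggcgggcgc
In Ifitm3 the response element core begins at bases 3 and 20 after the start, in Shisa5 at base 33 after the start of 1 of its RefSeq transcripts, in B2m 139 bases before it and in Gbp7 53 bases before it. The windows of H2-D1 and Cyba, also among the genes of lowest p on the higher side, held neither motif and are not shown. No window of Zrsr2, Serpina3f or Iigp1 is described here. A match describes the letters and does not show that a factor bound there.

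Across genes, the response element core was found in 3.44% of 32851 RefSeq promoter windows and in at least 1 window of 3.99% of 27025 genes. It was found in 20 of 40 genes of the interferon response list that had a window (50%), and in 12 of 19 of the list of interferon-inducible GTPases and interferon gamma targets (63.2%). MHC class I and peptide loading genes held it in 5 of 21 (23.8%) and genes of S phase in 0 of 28. The gamma-activated site was found in 8.30% of all windows, in 9 of the 40 interferon response genes (22.5%) and in 10 of the 19 GTPase and interferon gamma target genes (52.6%). These lists are lists of known interferon targets, and the motif shares describe the lists, not their change with Ly6a.

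Ifitm3, a membrane protein that blocks the entry of viruses and is abundant in HSCs, stood at 2259, 2867, 2205 and 1910 CPM in Ly6a-high HSCs and at 1264, 1704, 1235 and 1482 CPM in Ly6a-low HSCs. It was counted in all 132 cells, the groups did not overlap, and the log2 fold change was 0.70 ± 0.13 (SE; edgeR, adjusted p = 0.551). Over the 4 bins it averaged 1421, 1721, 1929 and 2310 CPM from lowest to highest Ly6a, so the 2 middle bins, which the comparison does not use, lay between the sides. DESeq2 gave it an adjusted p of 1.58e-04, and the range of adjusted p over the alternatives tried was 1.58e-04 to 1.00.

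Shisa5, a membrane protein of the endoplasmic reticulum known for a part in cell death, stood at 1302, 1298, 1308 and 1162 CPM in Ly6a-high HSCs and at 886, 629, 395 and 780 CPM in Ly6a-low HSCs. The Ly6a-high sums lay close together and above every Ly6a-low sum, with a log2 fold change of 0.98 ± 0.20 (SE; edgeR, adjusted p = 0.718). It was the one gene called by limma on the mean log2 CPM of cells, where the difference was 1.72 (adjusted p = 0.0117; range over the alternatives 4.18e-04 to 1.00). Over the bins it averaged 673, 872, 908 and 1267 CPM.

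Serpina3f, a protease inhibitor induced by interferon gamma, was a gene of few cells with large values. It stood at 145, 331, 72.8 and 46.1 CPM in Ly6a-high HSCs and at 71.6, 2.26, 1.14 and 0.349 CPM in Ly6a-low HSCs, with a count in 22 Ly6a-high and 13 Ly6a-low cells (edgeR, adjusted p = 0.718; DESeq2, 5.82e-07; range over the alternatives 6.43e-09 to 1.00). The groups overlapped, since libraries 3 and 4 held about as much or less in Ly6a-high HSCs than library 1 in Ly6a-low HSCs. Serpina3g, its close paralog, was far more abundant, at 1287 ± 597 CPM in Ly6a-high and 848 ± 118 CPM in Ly6a-low HSCs, and was higher in 3 of 4 libraries.

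Interferon-inducible GTPases, which attack the membranes around intracellular microbes, were higher in Ly6a-high HSCs in several members. Iigp1 stood at 194, 279, 272 and 130 CPM in Ly6a-high HSCs and at 102, 58.7, 71.6 and 84.1 CPM in Ly6a-low HSCs (log2 fold change 1.43 ± 0.37, SE; edgeR, adjusted p = 1.00). Gbp7, a guanylate-binding protein, stood at 230, 279, 205 and 180 CPM in Ly6a-high and at 111, 138, 108 and 119 CPM in Ly6a-low HSCs, and was counted in 47 Ly6a-high and 31 Ly6a-low cells. Tgtp2 stood at 187 ± 44.1 CPM in Ly6a-high and at 108 ± 13.9 CPM in Ly6a-low HSCs (SD, n = 4 each). In Iigp1, Gbp7 and Tgtp2 the groups did not overlap, with Ly6a-high above Ly6a-low, as was so in 1.55% of all genes tested. Tgtp2 was named after its values were seen. In Ifi47, the most abundant GTPase of the list, the groups overlapped. Tgtp1 and Tgtp2 are near-identical, so their shares of the reads are uncertain.

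Of 28 listed GTPases and interferon gamma targets, 26 were in the table and 22 passed the filter. None of the 22 passed the test in either direction, 6 were higher in 4 of 4 libraries (27.3%, against 5.87% of all genes tested) and none was lower in 4 of 4. The 6 were Iigp1, Tgtp1, Tgtp2, Gbp6, Gbp7 and Serpina3f. Their list had a median log2 fold change of 0.83, beside -0.04 over all genes tested, and 0.33 without library 2. The summed level was 4240, 5111, 3245 and 2150 CPM in Ly6a-high HSCs and 2366, 2608, 2094 and 2226 CPM in Ly6a-low HSCs. The sum was thus higher in 3 of 4 libraries and slightly lower in library 4.

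The wider interferon response list, which holds antiviral effectors and the factors that induce them, gave a like picture. Of 54 genes listed, 52 were in the table and 45 passed the filter; none passed the test in either direction. Of the 45, 8 were higher in 4 of 4 libraries (17.8%, against 5.87% of all genes tested). Among them were Irf9, Trim30a, Samhd1, Ifitm3, Phf11b, Shisa5 and Ly6e. Oasl1 was lower in 4 of 4 (2.22%, against 6.75% of all genes tested). The median log2 fold change was 0.60, with 35 of 45 values positive. It was 0.40 without library 3 and 0.39 when cells of 10000 counts or more were kept. Summed over the list, the level was 13013, 15342, 13941 and 10956 CPM in Ly6a-high HSCs and 9068, 11172, 8349 and 9251 CPM in Ly6a-low HSCs, and over the bins it averaged 9460, 10774, 11958 and 13313 CPM. Most of this sum came from Ifitm1, Ifitm3, Ifitm2, Shisa5 and Ly6e, at means of 3420, 2310, 1267, 1267 and 1144 CPM in Ly6a-high HSCs. The sum and its bins therefore say little about the other genes of the list.

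Several abundant members overlapped between the sides. Ifitm1, the other Ifitm gene typical of HSCs, stood at 2993, 3867, 3836 and 2984 CPM in Ly6a-high and at 2206, 3993, 2168 and 2726 CPM in Ly6a-low HSCs, higher in 3 of 4 libraries. Ifitm2 stood at 1267 ± 146 CPM in Ly6a-high and at 1179 ± 182 CPM in Ly6a-low HSCs, higher in 2 of 4. Ifi47, a GTPase of the interferon gamma response, stood at 298 ± 89.4 CPM in Ly6a-high and at 253 ± 77.2 CPM in Ly6a-low HSCs.

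Among the signalling genes of the pathway, Irf9, a transcription factor of the response to type I interferon, stood at 196 ± 75.8 CPM in Ly6a-high and at 93.3 ± 25.4 CPM in Ly6a-low HSCs, higher in 4 of 4. Irf7, which amplifies type I interferon, stood at 120 ± 56.4 CPM in Ly6a-high and at 46.5 ± 36.1 CPM in Ly6a-low HSCs, higher in 3 of 4. Irf1, the factor most closely tied to interferon gamma, stood at 207 ± 113 CPM in Ly6a-high and at 227 ± 91.3 CPM in Ly6a-low HSCs, and the groups overlapped. Irf9 and Irf7 were named after their values were seen. Of the 30 receptors, JAKs, STATs and IRFs that passed the filter, none passed the test. In 4 of them, Jak1 and Irf9 included, levels were higher in 4 of 4 libraries (13.3%, against 5.87% of all genes tested). Ptpn2, a phosphatase that acts on JAKs, was lower in 4 of 4 (3.33%, against 6.75% of all genes tested). The median log2 fold change of the 30 was 0.24.

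MHC class I genes, whose products show peptides at the cell surface, had small differences, none past the test and most of them positive. B2m, the light chain of every class I molecule, stood at 12328, 12088, 13490 and 11430 CPM in Ly6a-high HSCs and at 9875, 10851, 9057 and 8874 CPM in Ly6a-low HSCs (log2 fold change 0.36 ± 0.086, SE; edgeR, adjusted p = 1.00; DESeq2, 0.0139, the lowest of the alternatives, which reached 1.00). The heavy chain gene H2-D1 stood at 3635, 3738, 3356 and 3248 CPM in Ly6a-high and at 2679, 3113, 1901 and 2551 CPM in Ly6a-low HSCs. The heavy chain gene H2-K1 stood at 5040 ± 464 CPM in Ly6a-high and at 3938 ± 526 CPM in Ly6a-low HSCs. Each of these genes was counted in all 132 cells, and the groups did not overlap in any of them. Such a lack of overlap, with Ly6a-high above Ly6a-low, was seen in 1.55% of all genes tested. H2-K1 and H2-D1 are near copies of each other, so the division of reads between them is uncertain. Psmb8, a catalytic subunit of the immunoproteasome that cuts peptides for class I, stood at 672, 836, 707 and 620 CPM in Ly6a-high HSCs and at 508, 507, 499 and 482 CPM in Ly6a-low HSCs, again with no overlap. Psmb9, also on the class I list, stood at 368 ± 112 CPM in Ly6a-high and at 235 ± 92.5 CPM in Ly6a-low HSCs. It was higher in 3 of 4 libraries and overlapped between the sides. Psmb8 and Psmb9 were named after their values were seen.

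Of 27 class I and peptide loading genes listed, 25 were in the table, 23 passed the filter and none passed the test. Positive log2 fold changes were seen in 21 of 23, with a median of 0.34. Of the 23, 7 were higher in 4 of 4 libraries (30.4%, against 5.87% of all genes tested). The 7 were B2m, H2-K1, H2-D1, H2-T22, H2-T23, Erap1 and Psmb8. None was lower in 4 of 4. The summed level was 26526 ± 1492 CPM in Ly6a-high and 20800 ± 1916 CPM in Ly6a-low HSCs (SD, n = 4 each), most of it from B2m, H2-K1 and H2-D1. H2-Q7, a nonclassical class I gene, stood at 643 ± 152 CPM in Ly6a-high and at 597 ± 106 CPM in Ly6a-low HSCs and overlapped.

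MHC class II genes were uneven. Cd74, the invariant chain that guides class II molecules, stood at 1564, 332, 487 and 208 CPM in Ly6a-high HSCs and at 175, 369, 307 and 91.8 CPM in Ly6a-low HSCs. Library 1 stood apart on the high side, where a single cell held 29.4% of the counts of all 4 libraries. H2-Aa, the class II alpha chain, stood at 151 ± 42.7 CPM in Ly6a-high and at 124 ± 92.7 CPM in Ly6a-low HSCs, counted in 23 Ly6a-high and 22 Ly6a-low cells. Of the 9 class II genes past the filter, none passed the test and 1, H2-Oa, was higher in 4 of 4 libraries (11.1%, against 5.87% of all genes tested).

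**Figure D2:**
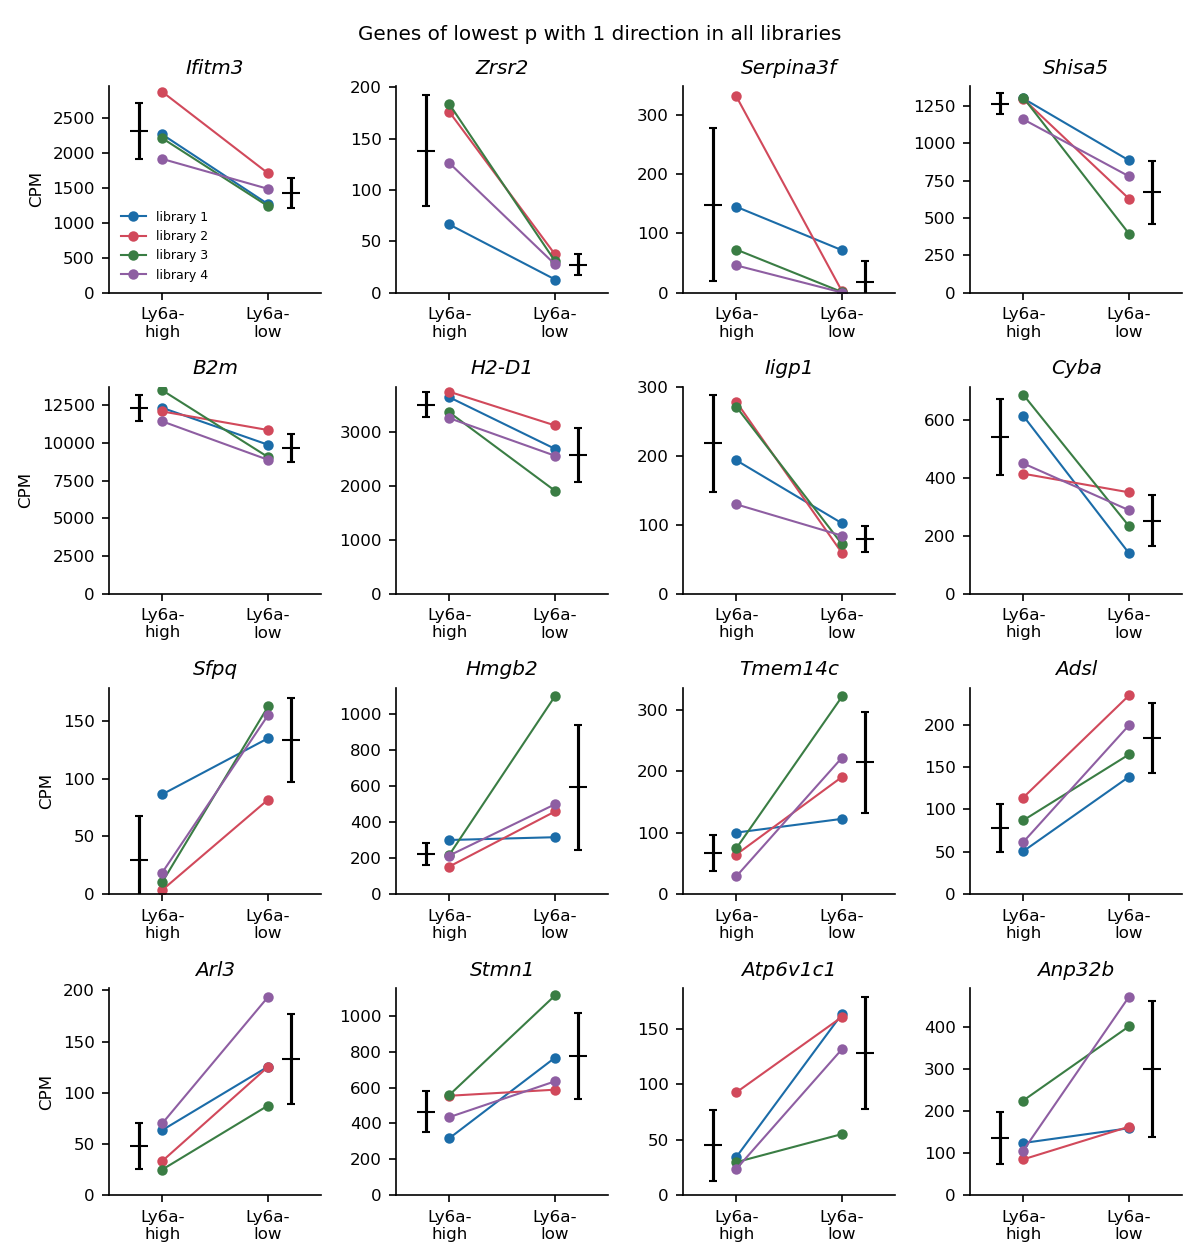
Level in CPM of the 8 genes of lowest p on the higher side (upper 2 rows) and on the lower side (lower 2 rows), among genes with 1 direction in 4 of 4 libraries and a mean of at least 50 CPM. Points are the sums of 1 library, joined between Ly6a-high (left) and Ly6a-low (right), and bars are the mean with SD over 4 libraries. Ifitm3, Shisa5, B2m, H2-D1, Iigp1, Cyba and Zrsr2 do not overlap between sides, and Serpina3f does.

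Zrsr2 and Cyba, also among the 8, belong to none of these lists. Zrsr2, a factor of the minor spliceosome, stood at 66.5, 176, 184 and 126 CPM in Ly6a-high HSCs and at 12.9, 37.3, 30.7 and 27.6 CPM in Ly6a-low HSCs, without overlap. It was counted in 28 Ly6a-high and 13 Ly6a-low cells and had a log2 fold change of 2.35 ± 0.45 (SE; edgeR, adjusted p = 0.551; DESeq2, 0.00230, the lowest of the alternatives, which reached 1.00). Its middle bins averaged 71.1 and 84.9 CPM, between the sides. Cyba, a subunit of the NADPH oxidase that makes superoxide, stood at 542 ± 131 CPM in Ly6a-high and at 253 ± 89.6 CPM in Ly6a-low HSCs, also without overlap. A few genes were named after their values were seen. Trim30b, a tripartite motif protein, stood at 67.5 ± 58.8 CPM in Ly6a-high and at 6.69 ± 5.59 CPM in Ly6a-low HSCs, with a count in 22 Ly6a-high and 6 Ly6a-low cells. Cd55, a GPI-anchored regulator of complement, stood at 114 ± 61.8 CPM in Ly6a-high and at 36.6 ± 18.4 CPM in Ly6a-low HSCs, higher in 4 of 4 libraries. Lymphotoxin beta, encoded by Ltb, stood at 974 ± 214 CPM in Ly6a-high and at 558 ± 311 CPM in Ly6a-low HSCs, higher in 3 of 4. Tbxas1, thromboxane synthase, stood at 708 ± 149 CPM in Ly6a-high and at 463 ± 90.0 CPM in Ly6a-low HSCs, without overlap.

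Genes that mark HSCs were next compared, since Sca-1 is itself an HSC antigen. Mllt3, a chromatin reader that sustains HSC self-renewal, stood at 925, 719, 845 and 1041 CPM in Ly6a-high HSCs and at 667, 567, 552 and 704 CPM in Ly6a-low HSCs (log2 fold change 0.50 ± 0.16, SE; edgeR, adjusted p = 1.00). The lowest Ly6a-high sum lay just above the highest Ly6a-low sum. Pdzk1ip1, a small membrane protein enriched in long-term HSCs, stood at 918 ± 192 CPM in Ly6a-high and at 708 ± 155 CPM in Ly6a-low HSCs, higher in 4 of 4 libraries. Esam, a junction protein used to sort HSCs, stood at 255 ± 33.2 CPM in Ly6a-high and at 192 ± 57.5 CPM in Ly6a-low HSCs, higher in 4 of 4. These genes were named after their values were seen. The abundant HSC transcription factors Hlf and Meis1 overlapped between the sides. Hlf stood at 399 ± 141 CPM in Ly6a-high and at 370 ± 90.2 CPM in Ly6a-low HSCs, and Meis1 at 422 ± 84.0 CPM in Ly6a-high and at 401 ± 124 CPM in Ly6a-low HSCs.

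All 32 HSC identity genes listed passed the filter and none passed the test. Of these, 7 were higher in 4 of 4 libraries (21.9%, against 5.87% of all genes tested) and none lower, with a median log2 fold change of 0.33. Ifitm1, Ifitm3 and Ly6e stand on both this list and the interferon response list. Without them, 5 of 29 were higher in 4 of 4 (17.2%), namely Mllt3, Pdzk1ip1, Esam, Eng and Neo1, and the median was 0.29. The median of the 32 depended on the choices made: it was 0.11 with every cell thinned to 30000 counts, 0.16 between the highest and the lowest 33.3% of cells and 0.18 with limma. Pdzk1ip1 had a difference of -0.23 with limma, against the direction of its sums.

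Adhesion and niche genes had 5 of 27 higher in 4 of 4 libraries (18.5%, against 5.87% of all genes tested). The 5 were Itgb7, Cd47, Cd63, Cd82 and Esam. None was lower in 4 of 4, and the median was 0.10. The tetraspanin Cd63, named after its values were seen, stood at 973, 794, 696 and 1094 CPM in Ly6a-high and at 671, 690, 418 and 726 CPM in Ly6a-low HSCs. Among 36 HSC transcription factors past the filter, Lmo2 and Gfi1 were higher in 4 of 4 libraries (5.56%, against 5.87% of all genes tested). Cbfb was lower in 4 of 4 (2.78%, against 6.75% of all genes tested), and the median of the 36 was 0.06. Lmo2, a bridging factor of the stem cell complex also named in this way, stood at 896 ± 76.9 CPM in Ly6a-high and at 717 ± 163 CPM in Ly6a-low HSCs. Among 22 genes of GPI anchor assembly, the pathway that fixes Sca-1 in the membrane, 1 was higher in 4 of 4 (4.55%, against 5.87% of all genes tested). That gene was Dpm3, a subunit of dolichol-phosphate mannose synthase, at 275 ± 96.5 CPM in Ly6a-high and at 172 ± 11.5 CPM in Ly6a-low HSCs. None of the genes in these groups passed the test.

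**Figure D3:**
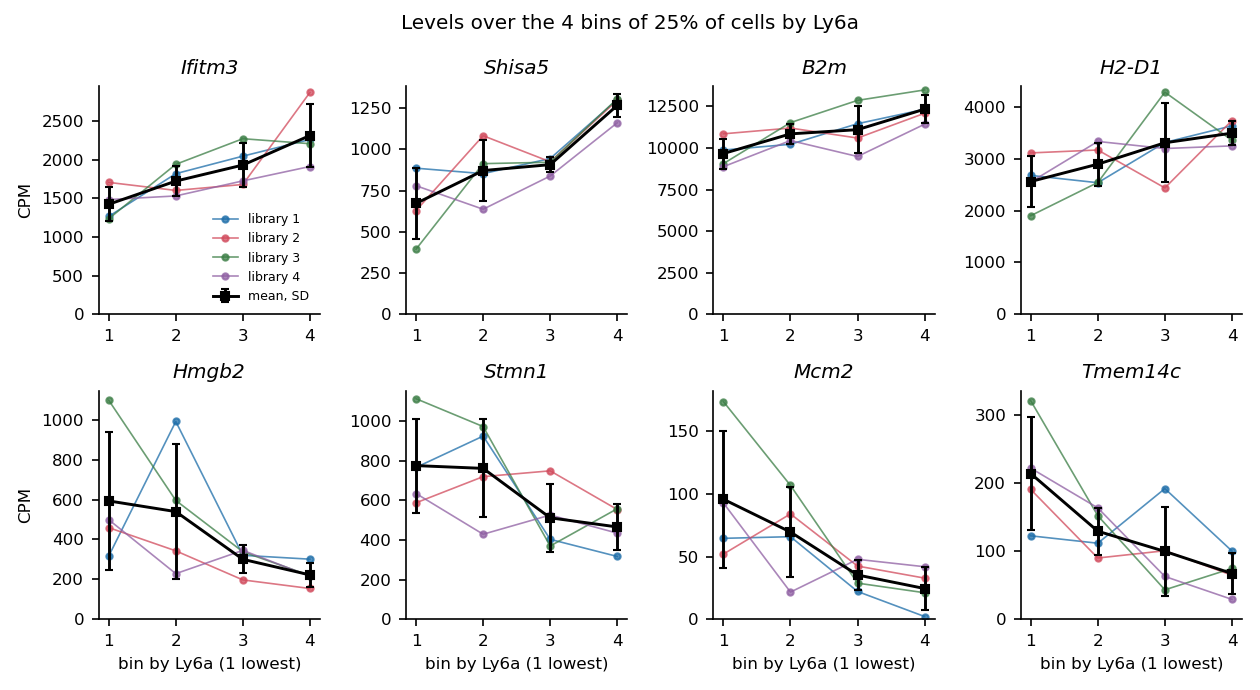
Level in CPM over the 4 bins of 25% of cells by Ly6a, from lowest (1) to highest (4), for 4 genes that were higher and 4 that were lower in Ly6a-high HSCs. Coloured lines are libraries, black squares the mean with SD over 4 libraries. The means of Ifitm3, Shisa5, B2m and H2-D1 climb and those of Hmgb2, Stmn1, Mcm2 and Tmem14c drop at each step, while single libraries cross. These genes were picked for display, and Mcm2 was named after its values were seen. Other named genes did not run in order over the bins: Lmo2 averaged 717, 966, 934 and 896 CPM, and Mllt3 622, 541, 688 and 883 CPM.

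Of the 8 abundant genes of lowest p on the lower side, Hmgb2 is on the G2 and mitosis list and none is on the S phase list. None of the 8 passed the test. Hmgb2, a chromatin protein of dividing cells, stood at 301, 154, 218 and 215 CPM in Ly6a-high HSCs and at 316, 459, 1099 and 499 CPM in Ly6a-low HSCs (log2 fold change -1.30 ± 0.32, SE; edgeR, adjusted p = 1.00; DESeq2, 0.0220; range over the alternatives 5.41e-04 to 1.00). Library 3 was the highest of the Ly6a-low sums and library 1 differed little between its sides. Stmn1, a protein that takes microtubules apart, stood at 317, 554, 558 and 435 CPM in Ly6a-high and at 767, 588, 1114 and 635 CPM in Ly6a-low HSCs. Anp32b, a histone chaperone, stood at 135 ± 62.1 CPM in Ly6a-high and at 299 ± 162 CPM in Ly6a-low HSCs. All were lower in 4 of 4 libraries, and of them Anp32b overlapped between the sides.

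Among S phase genes, Mcm2, a subunit of the replicative helicase, stood at 2.05, 32.8, 21.1 and 41.8 CPM in Ly6a-high HSCs and at 64.6, 52.0, 174 and 92.8 CPM in Ly6a-low HSCs, without overlap and with a count in 13 Ly6a-high and 17 Ly6a-low cells. Tyms, which makes the thymidine building block of DNA, stood at 8.72 ± 6.87 CPM in Ly6a-high and at 70.7 ± 80.9 CPM in Ly6a-low HSCs, counted in 5 Ly6a-high and 15 Ly6a-low cells. Mcm2 and Tyms were named after their values were seen. Pcna, the sliding clamp of DNA polymerase, stood at 134 ± 38.3 CPM in Ly6a-high and at 229 ± 110 CPM in Ly6a-low HSCs, lower in 3 of 4 libraries. In Ly6a-high HSCs, Mcm6, Rfc2 and Dut stood at 139 ± 19.9, 128 ± 40.9 and 146 ± 77.2 CPM. In Ly6a-low HSCs they stood at 233 ± 72.7, 215 ± 86.2 and 245 ± 208 CPM. Mcm6 was lower in 4 of 4 libraries, Rfc2 in 3 and Dut in 2, and each overlapped between the sides. Of 29 S phase genes past the filter, from 38 listed, none passed the test, 7 were lower in 4 of 4 libraries (24.1%, against 6.75% of all genes tested) and none higher. The 7 were Mcm2, Mcm5, Mcm6, Gins2, Tyms, Nasp and Chaf1b, and the list's median log2 fold change was -0.71. Per library, on CPM plus 1, its median log2 difference was -0.70, 0, -2.26 and -0.67 in libraries 1 to 4. The list's summed level was 1162, 1273, 1356 and 1536 CPM in Ly6a-high HSCs and 1995, 1357, 5166 and 2025 CPM in Ly6a-low HSCs. Library 3 held the largest Ly6a-low sum, and without it the median was -0.38. The same Ly6a-low sum was the highest for the erythroid list, which stood at 2738, 2840, 3768 and 3052 CPM in Ly6a-high HSCs and at 3192, 2388, 6256 and 3687 CPM in Ly6a-low HSCs. The part of the erythroid genes in the result was not tested.

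Genes of G2 and mitosis were rarer still. Of 40 listed, all were in the table, 17 passed the filter and none passed the test. Of the 17, 4 were lower in 4 of 4 libraries (23.5%, against 6.75% of all genes tested): Ccnb1, Nusap1, Hmgb2 and Kif20b. None was higher in 4 of 4, and the median log2 fold change was -1.30, or -0.36 with limma on the mean log2 CPM of cells. The summed level was 937, 607, 809 and 740 CPM in Ly6a-high HSCs and 1122, 1145, 3547 and 2052 CPM in Ly6a-low HSCs. Over the bins, it averaged 1967, 1964, 1040 and 773 CPM, and that of the S phase list 2636, 2452, 1405 and 1332 CPM, so both bins of lower Ly6a stood above both bins of higher Ly6a.

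Counts of several cell cycle genes came from few cells. Mki67, the classical marker of cycling cells, was counted in 2 Ly6a-high cells with 4 counts in all, and in 7 Ly6a-low cells with 134 counts, of which 3 cells held 124. Ccnb2, a cyclin of mitosis, had 1 count in 1 Ly6a-high cell and 349 counts in 7 Ly6a-low cells. Birc5, which guards chromosome separation, had 31 counts in 7 Ly6a-high cells and 557 in 9 Ly6a-low cells. Top2a, which untangles copied DNA, was counted in 10 Ly6a-high cells and 15 Ly6a-low cells. These 4 genes were named after their values were seen. Other members of the lists were counted in many cells: Hmgb2 in 49 Ly6a-high and 56 Ly6a-low cells, Pcna in 39 cells of each side, Smc4 in 33 of each, and Tubb4b in 50 Ly6a-high and 49 Ly6a-low cells. When cells with any Mki67 count were left out, a choice made after seeing the data, the medians were -0.43 for S phase and -0.93 for G2 and mitosis. With each cell thinned to 30000 counts they were -0.26 and -0.87. The medians of the interferon response list and of the class I list without those cells were 0.54 and 0.23.

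D cyclins and cell cycle inhibitors, by contrast with S phase genes, had a median near 0 (log2 fold change 0.01). Of the 16 past the filter, Ccnd1 and E2f4 were lower in 4 of 4 libraries (12.5%, against 6.75% of all genes tested) and none higher. The difference between the lists was not tested. Ccnd2, the main D cyclin here, stood at 911 ± 147 CPM in Ly6a-high and at 873 ± 183 CPM in Ly6a-low HSCs. Cdk6, the kinase whose level is known to set how fast HSCs leave quiescence, stood at 51.7 ± 44.4 CPM in Ly6a-high and at 42.1 ± 53.7 CPM in Ly6a-low HSCs, and Cdkn1c, an inhibitor of quiescent HSCs, at 40.0 ± 32.5 CPM in Ly6a-high and at 34.4 ± 28.4 CPM in Ly6a-low HSCs. Both were counted in at most 17 cells of a side and their spread exceeded the difference.

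The remaining abundant genes of lowest p on the lower side come from varied processes. Sfpq, a splicing protein of nuclear paraspeckles, stood at 86.5, 3.69, 10.5 and 18.8 CPM in Ly6a-high HSCs and at 135, 81.9, 163 and 155 CPM in Ly6a-low HSCs. It was counted in 14 Ly6a-high and 29 Ly6a-low cells, with a log2 fold change of -3.01 ± 0.68 (SE; edgeR, adjusted p = 1.00; DESeq2, 0.00363; range over the alternatives 0.00157 to 1.00). Tmem14c, a mitochondrial protein needed for heme synthesis, stood at 67.1 ± 29.5 CPM in Ly6a-high and at 214 ± 82.7 CPM in Ly6a-low HSCs, without overlap. Adsl, an enzyme of purine synthesis, stood at 78.3 ± 28.3 CPM in Ly6a-high and at 184 ± 41.7 CPM in Ly6a-low HSCs, and Arl3, a small GTPase of cilia, at 47.9 ± 22.2 CPM in Ly6a-high and at 133 ± 44.2 CPM in Ly6a-low HSCs. Neither overlapped between the sides. Atp6v1c1, a subunit of the proton pump of lysosomes, stood at 45.0 ± 32.1 CPM in Ly6a-high and at 128 ± 50.6 CPM in Ly6a-low HSCs, and the groups overlapped. Spc24, a kinetochore protein named after its values were seen, had 1 count in 1 Ly6a-high cell and 400 counts in 8 Ly6a-low cells (edgeR, adjusted p = 0.837; DESeq2, 1.58e-04, the lowest of the alternatives, which reached 1.00).

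Of the lineage genes, Car1 alone passed the test. Vwf, a gene of platelets and of platelet-biased HSCs, stood at 95.2, 88.1, 69.9 and 43.98 CPM in Ly6a-high HSCs and at 218, 44.1, 25.6 and 77.5 CPM in Ly6a-low HSCs. Cd34, which marks the onset of HSC activation in mice, stood at 89.5 ± 20.8 CPM in Ly6a-high and at 117 ± 32.8 CPM in Ly6a-low HSCs, lower in 4 of 4 libraries but overlapping, and its mean log2 CPM over cells was 0.36 higher with limma. Gng11, a G protein subunit of the platelet list named after its values were seen, stood at 760 ± 81.3 CPM in Ly6a-high and at 528 ± 105 CPM in Ly6a-low HSCs, without overlap. Of the genes past the filter, 1 of 16 platelet genes (6.25%), 1 of 15 lymphoid and multipotent progenitor genes (6.67%) and 1 of 10 myeloid genes (10%) were higher in 4 of 4 libraries. In the same order, 0, 1 and 1 genes of these lists (0%, 6.67% and 10%) were lower. Over all genes tested, 5.87% were higher and 6.75% lower. Of 13 erythroid genes past the filter, none but Car1 passed, none had 1 direction in 4 of 4 libraries by its sums, and the median log2 fold change was -0.53.

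The abundant immediate early and dormancy genes named here overlapped between the sides. Fos, a transcription factor induced within minutes of stimulation or of cell handling, stood at 6986, 4679, 4009 and 3198 CPM in Ly6a-high HSCs and at 3551, 8676, 3182 and 4920 CPM in Ly6a-low HSCs. Dusp1, a phosphatase induced in the same way, stood at 1804 ± 454 CPM in Ly6a-high and at 2501 ± 831 CPM in Ly6a-low HSCs. Library 2 held the highest Ly6a-low sum of both. Of 32 immediate early genes, none was higher and 1, Nr4a2, lower in 4 of 4 libraries (3.1%, against 6.75% of all genes tested), with a median log2 fold change of -0.36. Of 20 quiescence and dormancy genes, Btg1 was higher and Foxo3 lower in 4 of 4, with a median of -0.09. These are 5% each, against 5.87% and 6.75% of all genes tested. Apoe, the most abundant of them, stood at 1719 ± 522 CPM in Ly6a-high and at 1773 ± 271 CPM in Ly6a-low HSCs.

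Of 73 oxidative phosphorylation genes, 3 were higher and 5 lower in 4 of 4 libraries, with a median of -0.08. These are 4.11% and 6.85%, against 5.87% and 6.75% of all genes tested. Of 23 glycolysis genes, 2 were higher and 1 lower (8.70% and 4.35%), with a median of 0.06. Of 82 ribosomal protein genes, 5 were higher and 13 lower (6.10% and 15.9%), with a median of -0.02 and a summed level of 198903 ± 11156 CPM in Ly6a-high and 201054 ± 9735 CPM in Ly6a-low HSCs. Of 11 mitochondrially encoded genes, mt-Co1 was higher in 4 of 4 (9.09%), at 1701 ± 101 CPM in Ly6a-high and 1555 ± 174 CPM in Ly6a-low HSCs. Of 25 stem cell and cytokine receptors, 3 were higher and 1 lower (12% and 4%), with a median log2 fold change of 0.20. None of these genes passed the test.

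**Figure D4:**
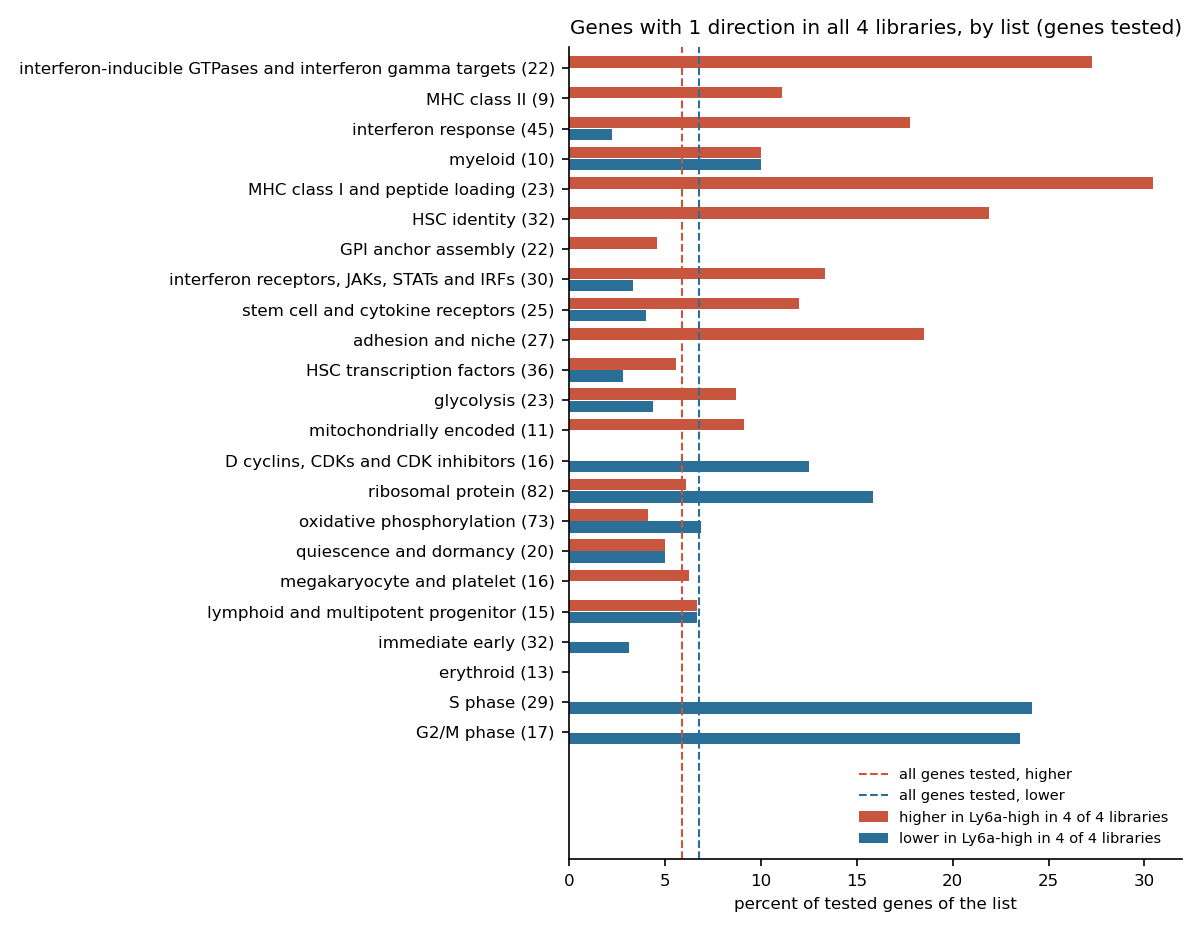
Percent of the tested genes of each list shown that were higher (red) or lower (blue) in Ly6a-high HSCs in 4 of 4 libraries, with the number of genes tested in brackets and lists ordered by median log2 fold change. The lists of Ly6 family genes (3 tested) and of sorting antigens (5 tested) are not drawn. Dashed lines give the same percent over all 8861 genes tested, 5.87% higher and 6.75% lower; lists share genes, and no list was tested as a set.

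Markers of other cells that a bone marrow sort could hold were summed for each side. Not all listed markers were in the table. It held 2 of 8 for mast cells and basophils, 4 of 9 for macrophages and monocytes and 5 of 12 for T and NK cells. For B cells it held 6 of 10, for neutrophils 7 of 9 and for megakaryocytes 5 of 7. The 2 markers of mast cells and basophils had no count in either side. Those of macrophages and monocytes lay between 0 and 24.8 CPM in Ly6a-high and between 28.3 and 51.7 CPM in Ly6a-low HSCs, with Ccr2 at 0 in both. Endothelial markers, several of which HSCs share, summed to 676 to 1104 CPM in Ly6a-high and to 668 to 820 CPM in Ly6a-low HSCs, higher in 4 of 4 libraries, with Flt1 at 0. B cell markers lay between 82.1 and 152 CPM in Ly6a-high and between 51.6 and 162 CPM in Ly6a-low HSCs, with Ebf1 at 0. Markers of T and NK cells lay between 19.6 and 209 CPM in Ly6a-high and between 0 and 97.4 CPM in Ly6a-low HSCs, and those of neutrophils between 40.4 and 74.7 CPM in Ly6a-high and between 3.39 and 208 CPM in Ly6a-low HSCs. Megakaryocyte markers lay between 126 and 241 CPM in Ly6a-high and between 122 and 388 CPM in Ly6a-low HSCs. Erythroblast markers, Car1 among them, summed to 140 to 545 CPM in Ly6a-high and to 119 to 1620 CPM in Ly6a-low HSCs. Their part in the results was not tested.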

How the data were processed

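The authors deposited a table of unnormalized read counts, genes by cells. Per the submitters' processing notes, Trimmomatic 0.36, HISAT2 2.1.0, HTSeq 0.9.1 and GRCm38 were used. Handling of molecular identifiers and strand is not stated, so a count may be a PCR copy, intervals and floors (3 counts) cover counting error only, and overlapping genes are not told apart. Library totals were 7417147, 8090683, 5265858 and 11215457 counts in 75, 75, 74 and 73 cells.

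Cells with at least 30000 counts and 1000 genes were kept (32091 to 346876 counts), which left out 17 cells. Another 16 were left out as 2 runs: cells 26 to 33 of library 2 and 9 to 16 of library 4. No doublet caller was run; the labels' protocols describe a sort that avoids doublets. Sides held 18, 16, 16 and 16 cells by library. Counts were summed per library and side and tested with edgeR 4.0.16 (R 4.3.3; TMM, filterByExpr, robust quasi-likelihood fit, library as block, Benjamini-Hochberg adjustment, threshold 0.05), with Ly6a left out. CPM is the sum scaled to 1000000 counts. DESeq2 1.42.0, limma 3.58.1, other scalings, filters, bounds of the sides and leaving out a library were alternatives. The script was tested on artificial counts before use. Both sides of a library come from that library, which pairs them; their deviations from the side means correlated at -0.02 to 0.03 over 3795 genes.

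Members and lists were chosen with earlier results of these data known. Named were all Ly6 family and sorting antigen genes, the 8 abundant genes of lowest p in each direction with 1 sign in 4 of 4 libraries (since fewer than 5 genes passed), genes of each list that passed or were its 4 most abundant, and 9 genes of general interest (Cd27, Vwf, Slamf1, Cd34, Kit, H2-Aa, Fos, Cdkn1c, Cdk6). Other genes were named after their values were seen, including the members listed as having 1 direction in 4 of 4 libraries.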

Additional observations from a re-analysis of the deposited data

Results flagged for a closer look

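Of 79 values checked for a library far from the other 3, 1 stood out, and chance alone sets apart about 1 group in 20. It was the log2 difference of Car1 between Ly6a-high and Ly6a-low HSCs per library, on CPM plus 1. The differences were -6.54, 0, -5.65 and -6.73 in libraries 1 to 4, and library 2, with no Car1 count on either side, lay apart at 0 (its gap to the nearest other was 0.839 of the range).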

How the results depend on the processing

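The count of genes past edgeR's threshold, 1 with Car1 as the gene, became 49 with DESeq2 and 13 with no filter on low counts. It became 0 with each cell thinned to 30000 counts, with cells ranked by thinned Ly6a, with the runs of cells kept, between the upper and the lower 50% of cells, without cells holding Mki67 and with no block for library (no replicate block). Leaving out 1 library gave 0 to 3 genes: 3 without library 1, 1 without library 2, 0 without library 3 and 0 without library 4. Car1 itself did not pass the filter on low counts with thinned cells, with the runs kept, without Mki67 cells or without library 3. Under limma 1 gene passed, which was Shisa5. The GTPase list's median ranged from 0.33 to 0.90 when 1 library was left out. The HSC identity median was 0.11 thinned, 0.16 between the outer 33.3% of cells, 0.18 with limma, 0.23 with the runs kept and 0.22 between the outer 50%. The G2/M median was -0.36 with limma. No median of these lists, nor of the interferon response, class I and S phase lists, changed sign under an alternative tried.

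Of 69 named genes followed under the alternatives, 51 kept their direction in all, and 18 did not. Log2 values that turned were, among cells of at least 10000 counts, Cdk6 -1.38, Fos 0.025 and Kit 0.037. Thinned, they were Ccnd2 -0.023, H2-Q7 -0.054, Hlf -0.062 and Meis1 -0.057. Between the outer 33.3% of cells, they were Cd27 -0.12, Cdk6 -0.17, Cdkn1c 0.41, Kit 0.18, Ptprc -0.020 and Vwf -0.19. With limma, they were Cd34 0.36, Cd59a -0.067, Cdk6 -0.60, Cdkn1c 0.093, Meis1 -0.14, Pcna 0.17, Pdzk1ip1 -0.23, Ptprc -0.18 and Vwf -0.68. Without the block, they were Cdkn1c 0.21 and Vwf -0.30. Ranked by thinned Ly6a, they were Apoe 0.046, Cdk6 -1.13, Fos 0.0007, Hlf -0.14, Kit 0.14 and Meis1 -0.0005. With the runs kept, they were Ccnd2 -0.033 and Cdk6 -1.45. Between the outer 50%, they were Apoe 0.026, Cd27 -0.30, Fos 0.15, Kit 0.19, Plaur 0.51, Ptprc -0.26 and Slamf1 0.15. Without Mki67 cells, they were Ccnd2 -0.011, Hlf -0.050 and Ptprc -0.024. With 1 library left out, Apoe ranged from -0.22 to 0.085, Cd59a from -0.30 to 0.76, Cdk6 from -0.77 to 0.92, Cdkn1c from -0.69 to 0.48, Fos from -0.38 to 0.27 and H2-Q7 from -0.0017 to 0.19. Hlf ranged from -0.28 to 0.38, Kit from -0.16 to 0.17, Meis1 from -0.14 to 0.41, Ptprc from -0.093 to 0.42, Slamf1 from -1.33 to 0.17 and Vwf from -0.36 to 0.57. The cause of these changes was not tested. Genes counted in few cells limit what the sums can show.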
